A study of Mus musculus with 20 samples.

Results

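The Wnt ligands, receptors and regulators of the aged mouse intervertebral disc were followed across both of its dissected tissues and across treatment with MDL-800. The members are the 57 genes, of 51789 in the table, whose symbols name a Wnt ligand, a frizzled receptor, an Sfrp, Dkk1 to Dkk4, an R-spondin or Lgr4 to Lgr6, together with Lrp5, Lrp6, Wif1, Axin1, Axin2, Ctnnb1, Apc, Lef1, Tcf7, Tcf7l1, Tcf7l2, Rnf43 and Znrf3. They were chosen by a rule on names and not by a cut on values, though earlier results of these data were known. By role they comprise 19 ligands, 12 receptors and co-receptors, 9 secreted inhibitors, 9 genes of the R-spondin axis and 8 intracellular genes.

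RNA was sequenced from the soft centre of the disc, the nucleus pulposus (NP), and from the layered fibrous ring that encloses it, the annulus fibrosus (AF). All mice were of the BL6 strain, were injected intraperitoneally each week from 18 months of age for 6 months, and were killed at 24 months. Vehicle mice received DMSO, and the others received MDL-800, a small-molecule activator of the deacylase SIRT6, in the same amount of DMSO, so every group carries the solvent and no group was left undosed. There were 4 groups of 5 libraries: NP vehicle (libraries 1, 2, 3, 5 and 6), NP MDL-800 (15, 18, 19, 20 and 22), AF vehicle (8, 9, 10, 12 and 13) and AF MDL-800 (25, 27, 28, 29 and 30). The labels speak both of cells and of tissue dissected under a microscope, and give neither sex nor how many animals stand behind a library. Whether the 5 libraries of a group come from separate mice is likewise not said, so p-values measure only the spread between these libraries, which may be technical.

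Wnt proteins are secreted lipid-modified ligands that bind frizzled receptors together with the co-receptors Lrp5 or Lrp6. In the canonical branch this stops the destruction complex, which contains Apc and the Axin proteins, from degrading beta-catenin, and beta-catenin then acts in the nucleus with Tcf and Lef factors. Sfrp proteins and Wif1 bind Wnt ligands outside the cell, and Dkk proteins such as Dkk1, though not the divergent Dkk3, bind the co-receptors. R-spondins acting through Lgr receptors protect frizzled proteins from removal by the E3 ligases Rnf43 and Znrf3. In the disc and the neighbouring skeleton the pathway is known for its part in notochord development, cartilage and bone formation.

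The deposited values are FPKM, fragments per kilobase of transcript per M (mega) fragments, and were scaled between libraries by factors of 0.933 to 1.06, so levels below are scaled FPKM. FPKM is a value per transcript length, and levels of different genes can therefore be set side by side. The depth of a library, estimated from the spacing of low values, lay between 12.5 and 22.0 M fragments, and 1 FPKM of a member stood for 14 to 278 fragments depending on its length and the library. Fold changes are on the log2 scale of scaled FPKM + 1, which understates the change of low genes, and adjusted p-values are from limma with Benjamini-Hochberg adjustment over 16383 genes. These are the genes that reached 1 FPKM in 5 libraries or more. A gene is called higher or lower at an adjusted p under 0.05. Of the members, 41 were tested and 16 fell below this minimum.

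The tissue labels were checked against marker genes. T (brachyury), a notochordal transcription factor, lay at 1193 to 1701 FPKM in NP vehicle and 113 to 624 in AF vehicle, while the tendon-like gene Tnmd lay at 0.0888 to 2.97 and 27.6 to 63.2. Tnmd is 1 of 7 annulus fibrosus markers, of which 6 had the higher mean in AF in both treatments, and Fmod went the other way (742 to 1509 FPKM in NP vehicle and 527 to 845 in AF vehicle). Noto, another notochordal factor, was near 0 in all 20 libraries, at most 0.155. A list of 4 cartilage markers, 2 of which (Acan and Sox9) NP also holds at high levels, summed to 1891 to 3630 FPKM in NP vehicle and 581 to 1946 in AF vehicle, and was higher in NP without overlap under MDL-800. Of the 10 lists for other cell types (neutrophils, macrophages, B and plasma cells, red blood cells, endothelium, fibroblasts and pericytes, nerve, fat, bone and skeletal muscle), the summed level was higher in AF without overlap for 9 in vehicle, all but skeletal muscle, and for 10 under MDL-800. All 44 genes of these lists had the higher mean in AF in both treatments. Neutrophil markers, for example, summed to 183 to 2695 FPKM in NP vehicle and 6364 to 16414 in AF vehicle, and bone markers to 9.56 to 52.6 and 214 to 796. The library AF vehicle 9 stood apart in its group, with the highest T (624 FPKM) and the lowest levels of several members that AF holds at high levels, and values without it are given for Wnt16, Wnt10a, Lrp5, Fzd8, Sfrp4, Dkk3 and Rnf43. In these members it lay towards NP, so leaving it out widens the difference.

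Between the tissues of vehicle mice, 11 of the 41 tested members were higher in NP and 18 were lower, which is 70.7% of them, against a background of 55.7% of all genes tested (21.8% higher, 33.9% lower). The median log2 difference was -0.19 over the members and -0.08 over all genes tested. Of the 9 tested ligands 4 were higher in NP and 1 was lower, both co-receptors were higher, and 7 of the 8 tested secreted inhibitors were lower. In 22 of the 41 the groups did not overlap (8 higher and 14 lower in NP, against 41% of all genes tested, 15.1% higher and 25.9% lower). With other scalings the split of higher to lower calls moved from 11:18 to 17:16 after quantile normalization. It became 18:15 after a GC trend was removed. These settings moved the median of all genes from -0.08 to 0.19 and 0.23. They raised the genes called from 9127 to 10504 and 10714 of 16383, and shares by direction were not counted there. Removal of the GC trend, here and below, also took out each library's mean deviation, so a change of call with it cannot be assigned to GC alone. In a bulk library, fewer cells of a type and less RNA per cell cannot be told apart.

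**Figure D1:**
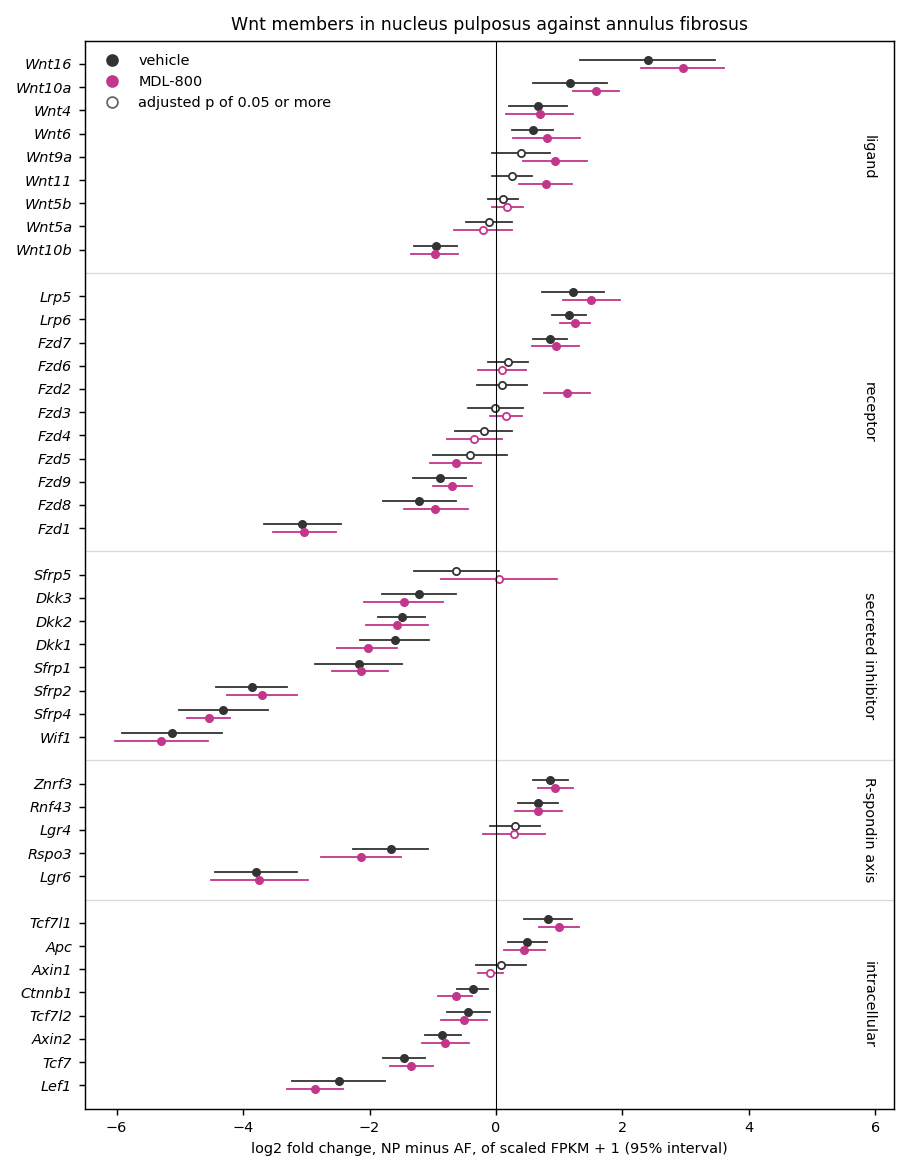
Log2 fold change of the 41 tested members between NP and AF (x axis, scaled FPKM + 1), grouped by role, with 95% intervals from limma, in vehicle (grey) and MDL-800 (magenta). Filled points have an adjusted p under 0.05. Wif1 lies farthest to the AF side (-5.12 and -5.29) and Wnt16 farthest to the NP side (2.40 and 2.96).

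Under MDL-800, 14 of 41 members were higher in NP and 19 lower, 80.5% of those tested, against 62.8% of all genes tested (25.6% higher, 37.2% lower). The median difference was -0.20 over the members and -0.08 over all genes. Groups did not overlap in 28 members (12 higher, 16 lower), against a background of 49.1% (18.5% higher, 30.5% lower). These libraries are not those of the vehicle comparison, and 29 members, 11 higher and 18 lower, were called in the same direction in both. Quantile normalization gave 17 higher and 14 lower here, and removal of a GC trend 18 and 16. Of 16383 genes tested, 11348 and 11529 were called in these settings, against 10290 in the main fit, with shares by direction not counted.

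Among the ligands, Wnt16, a Wnt known from joints and bone, was the most abundant in NP. Its gene (ENSMUSG00000029671) lies on the plus strand of chromosome 6, and its RefSeq promoter (250 bases before to 50 after the start, GRCm38.p6, chr6:22287977-22288276, plus strand) is printed because Wnt16 had the largest difference towards NP. Wif1, the secreted inhibitor with the largest difference towards AF on the scale used here, is printed beside it (chr10:121033754-121034053, plus strand). Capitals mark CG dinucleotides.
Wnt16: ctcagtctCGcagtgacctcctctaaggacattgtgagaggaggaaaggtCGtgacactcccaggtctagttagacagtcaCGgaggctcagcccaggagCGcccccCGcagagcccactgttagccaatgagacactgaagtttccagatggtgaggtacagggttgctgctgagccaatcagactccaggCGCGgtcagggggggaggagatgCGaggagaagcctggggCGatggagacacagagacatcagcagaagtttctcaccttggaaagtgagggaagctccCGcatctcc
Wif1: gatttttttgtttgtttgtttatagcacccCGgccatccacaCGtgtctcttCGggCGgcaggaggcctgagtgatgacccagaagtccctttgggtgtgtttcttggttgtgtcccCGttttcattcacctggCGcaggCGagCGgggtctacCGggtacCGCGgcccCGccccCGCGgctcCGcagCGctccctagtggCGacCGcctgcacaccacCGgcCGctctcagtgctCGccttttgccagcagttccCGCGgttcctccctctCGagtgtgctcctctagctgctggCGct
Of the members, 37 had at least 1 promoter in this table, 47 promoters in all. They held a median of 25 CG dinucleotides against 7 over all 32851 promoters of the same length, and 63.8% of them held at least 20, against 26.5% of all.

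In NP vehicle the Wnt16 values were 52.5, 71.3, 86.1, 86.7 and 73.8 FPKM, and in AF vehicle 7.9, 45.9, 17.6, 13.1 and 3.91. No AF library reached the lowest NP library, although AF vehicle 9, the second value, came close to it. Wnt16 was higher in NP by 2.40 (SE 0.49, adjusted p = 0.00166), and without AF vehicle 9 by 2.84 (SE 0.34, adjusted p = 0.00011). Over all 21 alternative settings its difference ran from 2.02 to 2.84. Under MDL-800 it ranged over 67.4 to 88.5 FPKM in NP, against 18.5, 5.22, 4.69, 11.6 and 8.31 in AF, a difference of 2.96 (SE 0.30, adjusted p = 1.24e-05). Wnt16 made up 74.1 ± 1.92% (SD, n = 5) of the summed FPKM of all 19 ligands in NP vehicle and 39.8 ± 19.8% in AF vehicle, where single libraries lay between 16.4% and 70.2%. The ligands together summed to 99.9 ± 18.4 FPKM in NP vehicle and 37.9 ± 16.8 in AF vehicle, and under MDL-800 to 108 ± 7.11 and 31.0 ± 7.68.

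**Figure D2:**
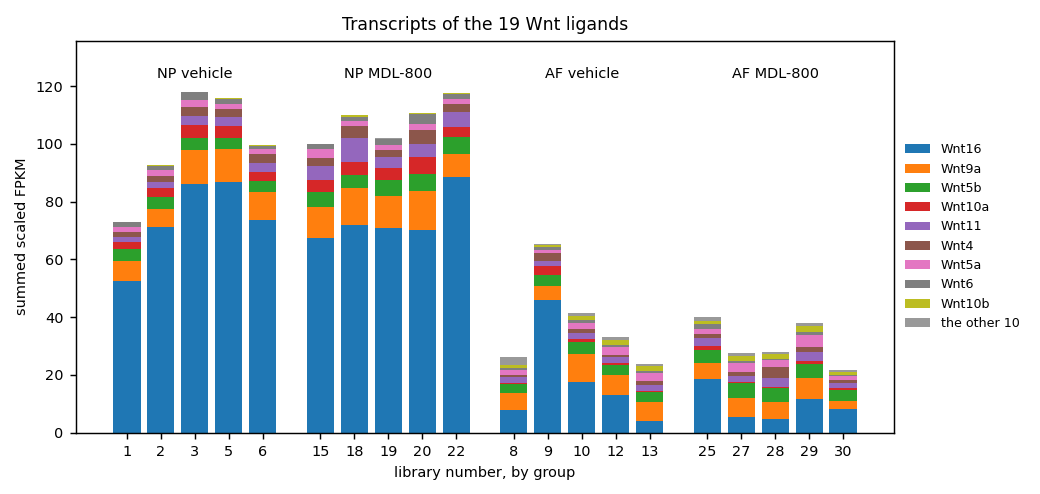
Summed scaled FPKM of the 19 Wnt ligands (y axis) in each of the 20 libraries (x axis), split by gene. Wnt16 fills most of each NP bar, and AF vehicle 9 has the tallest AF bar, at 65.4.

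In AF vehicle the libraries lowest and highest in Wnt16, 13 and 9, were also the lowest and highest in the notochordal marker T (113 and 624 FPKM). Per 1000 FPKM of T, Wnt16 stood at 44.0 to 68.6 FPKM (median 51.0) in NP vehicle and at 34.7 to 73.5 (48.9) in AF vehicle, so the ratios of the tissues overlapped. The corresponding ranges were 30.2 to 44.0 (36.4) in NP and 23.3 to 41.4 (36.0) in AF under MDL-800. T lay at 1780 to 2328 FPKM in NP MDL-800 and at 1193 to 1701 in NP vehicle, while mean Wnt16 was 73.8 and 74.1. A lower ratio in NP under MDL-800, and a change in overlap between treatments, can therefore come from T and not from the member. The same ratio was taken for all 11 members called higher in NP of vehicle mice. The tissues overlapped in 7 of the 11 in vehicle and in 2, Wnt16 and Wnt10a, under MDL-800, and in the others AF lay above NP. The median ratio was higher in AF for all of them but Wnt16. Because T itself is an NP marker, a member that differs less between the tissues than T has a higher ratio in AF by construction. The count therefore does not show where these members are made. Wnt10a stood at 1.9 to 3.74 (2.44) FPKM per 1000 of T in NP vehicle and 2.8 to 4.72 (3.26) in AF vehicle, and at 1.76 to 2.59 (2.2) and 1.78 to 3.94 (3.4) under MDL-800. Lrp6, whose ratios overlapped in vehicle and not under MDL-800, stood at 44.6 to 71.2 (66.6) FPKM per 1000 of T in NP vehicle and 62.4 to 254 (142) in AF vehicle, and at 32.1 to 45.7 (35.8) and 69.7 to 274 (110.0) under MDL-800. The part that NP cells in AF samples have in the AF levels of Wnt16 and Wnt10a was not tested.

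**Figure D3:**
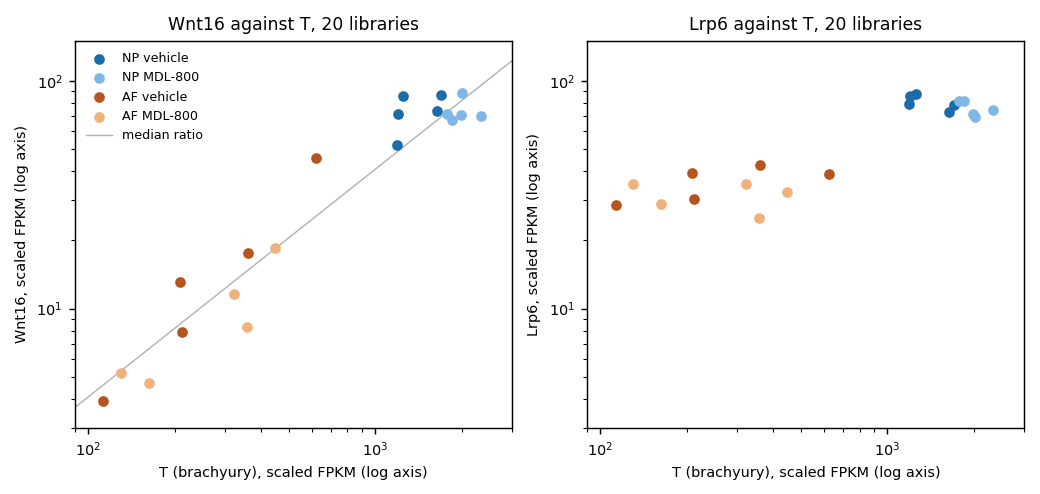
Wnt16 (left) and Lrp6 (right) against the notochordal marker T, in scaled FPKM on log axes, with 1 point for each of the 20 libraries coloured by group. The grey line is the median ratio of Wnt16 to T over all libraries, and the AF points of Wnt16 lie along it, whereas the AF points of Lrp6 lie in a band of 24.9 to 42.9.

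Wnt10a, a ligand best known from skin and teeth, showed the next largest ligand difference towards NP. Its values were 2.62, 2.99, 4.69, 4.15 and 3.12 FPKM in NP vehicle and 0.638, 2.94, 1.01, 0.704 and 0.367 in AF vehicle, higher in NP by 1.17 (SE 0.27, adjusted p = 0.00341). AF vehicle 9, the second AF value, overlapped NP, and without it the difference was 1.42 (SE 0.18, adjusted p = 0.000119). Under MDL-800 Wnt10a ranged over 3.53 to 6.02 and 0.44 to 1.38 FPKM and differed by 1.58 (SE 0.17, adjusted p = 1.78e-05). Wnt6, its neighbour 6.194 kb away on chromosome 1, was also higher in NP, with means of 1.81 ± 0.489 and 0.865 ± 0.214 FPKM in vehicle and 2.1 ± 0.841 and 0.807 ± 0.619 under MDL-800. Wnt4, a ligand of kidney and gonad development, had means of 2.59 ± 0.665 and 1.32 ± 0.697 FPKM in vehicle, a difference of 0.66 (SE 0.21, adjusted p = 0.0193), and 3.35 ± 1.03 and 1.76 ± 1.03 under MDL-800, a difference of 0.69 (SE 0.24, adjusted p = 0.0268). The Wnt4 call under MDL-800 was lost in 5 of 10 fits that left out 1 library, with adjusted p-values up to 0.0658.

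Wnt10b, a ligand that favours bone over fat formation, was the tested ligand with the opposite pattern. It lay at 0.111 to 0.207 FPKM in NP vehicle and 0.579 to 1.75 in AF vehicle, without overlap, and differed by -0.95 (SE 0.16, adjusted p = 0.000417). Under MDL-800 the difference was -0.97 (SE 0.17, adjusted p = 0.000521), and there too the groups did not overlap (0.148 to 0.726 and 0.981 to 2.17 FPKM). Wnt9a, a ligand of joint formation and second to Wnt16 in NP, lay at 6.9, 6.16, 11.9, 11.7 and 9.56 FPKM in NP vehicle and 5.72, 4.87, 9.56, 7 and 6.6 in AF vehicle, where the groups overlapped and the difference of 0.39 (SE 0.21, adjusted p = 0.137) did not pass. Under MDL-800 its values were 10.9, 13.1, 11.1, 13.4 and 8.11 and 5.77, 6.65, 5.85, 7.45 and 2.49, which did not overlap, and the difference was 0.93 (SE 0.23, adjusted p = 0.00457). The noncanonical ligands Wnt5a and Wnt5b passed in neither comparison, with vehicle means of 1.87 ± 0.33 and 2.14 ± 0.672 FPKM for Wnt5a and 3.93 ± 0.231 and 3.58 ± 0.472 for Wnt5b.

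The remaining 10 ligands did not reach the minimum for a test. Wnt2 was listed at 0 in all 10 NP libraries and at 0.22 to 0.534 FPKM in AF of vehicle mice and 0.171 to 0.626 in AF of treated mice. Wnt2b and Wnt7b were likewise lower in NP without overlap in both treatments, with highest NP values of 0.0607 and 0.0316 FPKM. The tissues came closest for Wnt2b under MDL-800, at 0.0526 in NP and 0.0664 in AF, and for Wnt7b in vehicle, at 0.0304 and 0.0386. As 1 fragment is worth 0.0144 to 0.0256 FPKM for Wnt2b and 0.0141 to 0.0249 for Wnt7b, such gaps can rest on 1 fragment. Wnt2b reached 2.15 FPKM in AF vehicle 8 alone. Wnt9b lay at 0.0418 FPKM or less everywhere, and Wnt1, Wnt3, Wnt3a, Wnt7a, Wnt8a and Wnt8b did not pass 0.178 FPKM in any library. A level of 0.178 FPKM stands for few fragments, since 1 fragment of Wnt8a is worth 0.0288 to 0.0514 FPKM.

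Among the receptors, both canonical co-receptors were higher in NP. Lrp6 had the smallest adjusted p among the members that were higher in vehicle NP. Its values were 79.5, 85.6, 87.7, 78.7 and 73.2 FPKM in NP vehicle and 30.2, 39, 42.9, 39.3 and 28.6 in AF vehicle, far from overlapping, and 81.4, 81.4, 71.4, 74.8 and 69.4 and 32.5, 35.4, 28.7, 35.4 and 24.9 under MDL-800. The difference was 1.16 (SE 0.12, adjusted p = 2.98e-05) in vehicle and 1.25 (SE 0.11, adjusted p = 4.89e-06) under MDL-800. Lrp5, the co-receptor whose mutations alter bone mass, lay at 64.6, 53.3, 67.4, 70.0 and 73.1 FPKM in NP vehicle and 30.3, 47.4, 26.7, 17.1 and 23.6 in AF vehicle. Its highest AF library, 9, stayed below the lowest NP library. The difference was 1.22 (SE 0.22, adjusted p = 0.000815), or 1.41 (SE 0.16, adjusted p = 7.89e-05) without that library, and under MDL-800, with values of 77.9, 79.9, 83.4, 102 and 90.8 and 45.8, 20.0, 25, 38.8 and 25.2, it was 1.51 (SE 0.20, adjusted p = 8.77e-05).

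Among the frizzleds, which summed to similar totals in both tissues (62.7 ± 5.96 FPKM in NP vehicle and 66.9 ± 12.4 in AF vehicle, SD, n = 5), the make-up differed. Fzd7 gave 53.9 ± 3.43% of that sum in NP vehicle and 28.1 ± 6.17% in AF vehicle, whereas Fzd1 gave 0.317 ± 0.184% and 14.1 ± 4.49%. The Fzd7 values were 29.3, 37.6, 37.9, 31.5 and 32.5 FPKM in NP vehicle and 16, 17.8, 23.2, 18.6 and 16 in AF vehicle, without overlap, and 35.9, 45.7, 32.9, 33.7 and 32.3 and 22.5, 21.4, 16.2, 20.6 and 12.1 under MDL-800. Fzd7 was higher in NP by 0.85 (SE 0.12, adjusted p = 0.000171) in vehicle and by 0.95 (SE 0.17, adjusted p = 0.000576) under MDL-800. Fzd1 was near 0 in NP, with 0.171, 0.227, 0.212, 0.0394 and 0.336 FPKM in NP vehicle against 11, 3.46, 9.79, 13 and 11.3 in AF vehicle. Its difference was -3.06 (SE 0.28, adjusted p = 1.31e-05) in vehicle and -3.03 (SE 0.23, adjusted p = 2.36e-06) under MDL-800, where NP lay at 0.0202 to 0.295 and AF at 4.69 to 12.4 FPKM.

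Fzd8 and Fzd9 were also lower in NP. For Fzd8 the values were 1.75, 2.33, 4.19, 3.71 and 3.59 FPKM in NP vehicle and 11.2, 4.38, 11.4, 6.77 and 9.55 in AF vehicle, which do not overlap, with AF vehicle 9 nearest to NP. It differed by -1.21 (SE 0.26, adjusted p = 0.00254) in vehicle and by -0.96 (SE 0.23, adjusted p = 0.00396) under MDL-800, where NP lay at 2.64 to 4.36 and AF at 4.13 to 11.9 FPKM. Without AF vehicle 9 the vehicle difference was -1.40 (SE 0.22, adjusted p = 0.000537), and after quantile normalization the call under MDL-800 was lost (-0.54, adjusted p = 0.0727). Fzd9 lay at 1.78, 2.1, 3.21, 2.01 and 1.67 FPKM in NP vehicle and 5.96, 3.67, 6.03, 3.19 and 5.62 in AF vehicle, overlapping through NP vehicle 3 and AF vehicle 12, and differed by -0.89 (SE 0.19, adjusted p = 0.00243) and, under MDL-800, by -0.69 (SE 0.14, adjusted p = 0.00143). Fzd9 passed in neither treatment after quantile normalization (-0.38, adjusted p = 0.113 in vehicle) or with the GC trend removed (-0.39, adjusted p = 0.0728).

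Fzd2 lay at 3.23, 4.05, 6.24, 5.58 and 4.73 FPKM in NP vehicle and 5.47, 3.75, 4.94, 3.09 and 4.65 in AF vehicle, a difference of 0.09 (SE 0.18, adjusted p = 0.683), and was called higher in NP under MDL-800 alone (1.12 (SE 0.17, adjusted p = 0.000165)). Fzd5 was called lower under MDL-800 alone (-0.64 (SE 0.18, adjusted p = 0.00952)), with means of 2.68 ± 0.832 and 4.73 ± 1.1 FPKM there and 3 ± 1.23 and 4.28 ± 1.58 in vehicle. That call was lost after quantile normalization (-0.12, adjusted p = 0.538) and with the GC trend removed (-0.31, adjusted p = 0.138). An overlapping gene on the other strand covers 17.8% of the exon bases of Fzd5, and whether counting used strand is not given in the sources used here. Fzd3, Fzd4 and Fzd6 passed in neither comparison, with vehicle means of 1.46 ± 0.324 and 1.55 ± 0.774 FPKM for Fzd3, 9.08 ± 2.87 and 10.4 ± 2.48 for Fzd4, and 4.86 ± 0.719 and 4.15 ± 0.737 for Fzd6. Fzd10 stayed at 0.732 FPKM or less in every library.

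Of the 8 tested secreted inhibitors, 7 were lower in NP and none higher in vehicle, against 33.9% of all genes lower and 21.8% higher. The divergent Dkk3 is counted among the 7 by its family name. The same counts held under MDL-800, against 37.2% lower and 25.6% higher. Their median log2 difference was -1.89 in vehicle and -2.09 under MDL-800, against -0.08 over all genes in both. Summed over the 9 members of this role, transcripts came to 45.8 ± 8.45 FPKM in NP vehicle and 225 ± 62.2 in AF vehicle (SD, n = 5). Under MDL-800 the sums were 51.6 ± 19.6 and 213 ± 46.7. Extracellular regulators outside the members are not in these sums. Of the 8 tested in vehicle, 7 were lower in NP and 1, the inhibitor Sostdc1, was higher (69.6 to 113 FPKM in NP, 12.9 to 35.6 in AF). The marker lists of bone, endothelium, fibroblasts and other cell types are higher in the same AF libraries, and their part in the AF levels of the inhibitors was not tested.

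Wif1, which binds Wnt ligands directly, was the inhibitor with the largest difference on the log2(FPKM + 1) scale. With a pseudocount of 0.1 in place of 1, Sfrp2 passed it in vehicle (-6.19 against -6.08) and not under MDL-800 (-5.98 against -6.29). Wif1 lay at 0.3, 1.7, 2.36, 0.266 and 3.37 FPKM in NP vehicle and 109, 61.3, 110.0, 67.5 and 63 in AF vehicle, so the lowest AF library was above every NP library by a wide margin. The difference was -5.12 (SE 0.36, adjusted p = 4.65e-06), and under MDL-800, with 1.21, 0.736, 1.87, 0.127 and 2.69 in NP and 81.6, 143, 85.4, 73.6 and 53.5 in AF, it was -5.29 (SE 0.33, adjusted p = 1.17e-06). Sfrp4, a frizzled-related protein linked to bone, lay at 0.311, 1.18, 0.789, 0.0592 and 1.35 FPKM in NP vehicle and 36.9, 14.2, 44, 40.0 and 36 in AF vehicle. Here AF vehicle 9 was the low library of its group, and the difference of -4.31 (SE 0.32, adjusted p = 5.59e-06) became -4.59 (SE 0.23, adjusted p = 1.55e-06) without it. Under MDL-800 the Sfrp4 values were 0.249, 0.747, 0.747, 0.169 and 0.556 and 30.2, 29.2, 31.9, 35.2 and 41.8, with a difference of -4.54 (SE 0.15, adjusted p = 1.81e-07).

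Sfrp2 lay at 0.0322, 0.402, 0.172, 0 and 0.148 FPKM in NP vehicle and 22.4, 7.32, 18.5, 17.1 and 17.5 in AF vehicle, and Sfrp1 at 0.0536, 0.124, 0.0911, 0.00986 and 0.0987 and 5.58, 1.35, 3.11, 8.94 and 3.23. For neither gene did the tissues overlap. Sfrp2 differed by -3.86 (SE 0.25, adjusted p = 3.98e-06) and Sfrp1 by -2.17 (SE 0.32, adjusted p = 0.000201) in vehicle. Under MDL-800 Sfrp2 lay at 0 to 0.453 and 7.3 to 22.9 FPKM and differed by -3.70 (SE 0.25, adjusted p = 1.66e-06), and Sfrp1 lay at 0 to 0.179 and 1.93 to 5.84 and differed by -2.14 (SE 0.20, adjusted p = 7.93e-06). An opposite-strand gene overlaps 16.1% of the exon bases of Sfrp2. Sfrp5, in contrast, was the main transcript of NP among the 9 member inhibitors. That set leaves out Sostdc1, an inhibitor at 69.6 to 113 FPKM in NP vehicle. Sfrp5 made up 66.3 ± 3.7% of the sum of the 9 in NP vehicle and 22.8 ± 9.2% in AF vehicle (SD, n = 5). Its values were 35.5, 28.5, 29.1, 24.8 and 32.7 FPKM in NP vehicle and 78.1, 56.6, 70.4, 23.1 and 30.4 in AF vehicle, overlapping, with a difference of -0.63 (SE 0.31, adjusted p = 0.107) that did not pass, and under MDL-800 of 0.05 (SE 0.42, adjusted p = 0.929).

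**Figure D4:**
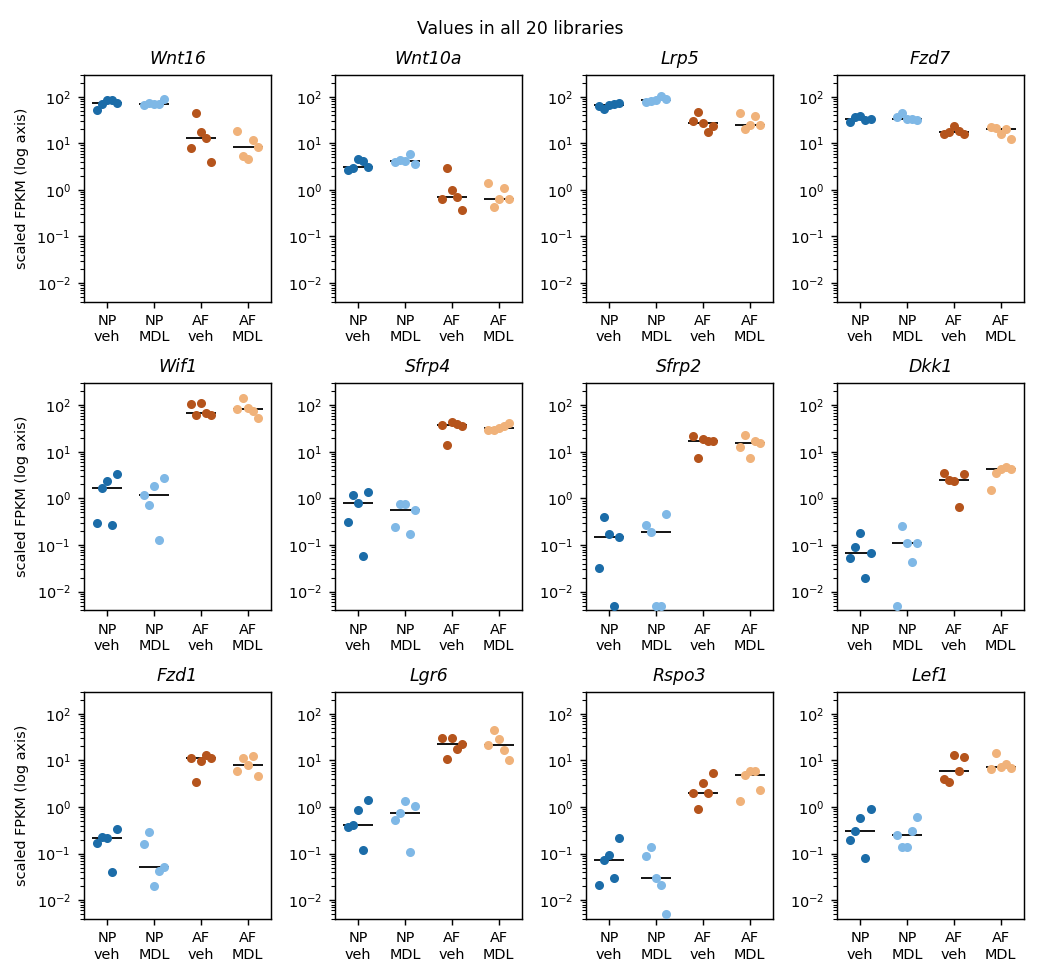
Scaled FPKM (log axis) of 12 members in each of the 20 libraries, by group (veh, vehicle; MDL, MDL-800), with the median as a line. Values under 0.005, zeros included, are drawn at 0.005. In the top row (Wnt16, Wnt10a, Lrp5 and Fzd7) NP points lie high, and in the other 8 panels every AF point lies above every NP point.

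The Dickkopf genes were lower in NP as well. Dkk1, an inhibitor that binds the co-receptors and a known beta-catenin target, lay at 0.0197 to 0.182 FPKM in NP vehicle and 0.657 to 3.57 in AF vehicle, and at 0, 0.252, 0.111, 0.0423 and 0.113 and 1.5, 3.55, 4.36, 4.84 and 4.22 under MDL-800. It differed by -1.60 (SE 0.25, adjusted p = 0.000282) and -2.03 (SE 0.21, adjusted p = 1.71e-05). Dkk2, a relative of Dkk1, lay at 0 to 0.107 and 1.09 to 3.19 FPKM in vehicle and differed by -1.49 (SE 0.17, adjusted p = 4.2e-05), and under MDL-800, at 0 to 0.0947 and 1.24 to 3.73, by -1.57 (SE 0.22, adjusted p = 0.000137). Dkk3, a divergent family member, was present in both tissues. Its values were 20.1, 11.9, 9.63, 9.53 and 13.8 FPKM in NP vehicle and 41, 15.6, 33.6, 34.7 and 34.2 in AF vehicle, where AF vehicle 9 overlapped NP, and it differed by -1.21 (SE 0.27, adjusted p = 0.00269) in vehicle and -1.46 (SE 0.28, adjusted p = 0.00098) under MDL-800 (5.14 to 13.1 and 13.5 to 39.2 FPKM). Without AF vehicle 9 the Dkk3 difference in vehicle was -1.44 (SE 0.20, adjusted p = 0.00022), and over all 21 alternative settings it ran from -1.44 to -0.87. Dkk4 was listed at 0 in 19 of 20 libraries.

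Promoters were also searched for the Tcf/Lef letters CTTTGAA and CTTTGAT on both strands (TTCAAAG and ATCAAAG on the other). They were found in 3 of the 47 member promoters, 6.38%, against 8.65% of all promoters of this length, and the members holding them were Wnt5b, Wnt11 and Dkk1. A match is a description of letters, not a binding site. The promoters of Wnt11 (chr7:98834862-98835161, plus strand) and Dkk1 (chr19:30549447-30549746, minus strand), from RefSeq GRCm38.p6, are printed as those with the letters whose genes are described at length, and capitals mark the match.
Wnt11: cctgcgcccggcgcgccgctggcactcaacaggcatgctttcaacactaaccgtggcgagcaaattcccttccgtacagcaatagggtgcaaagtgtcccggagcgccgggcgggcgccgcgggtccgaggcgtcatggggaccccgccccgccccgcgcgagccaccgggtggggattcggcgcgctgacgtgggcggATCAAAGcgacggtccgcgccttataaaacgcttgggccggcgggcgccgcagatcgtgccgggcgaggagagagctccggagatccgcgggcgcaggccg
Dkk1: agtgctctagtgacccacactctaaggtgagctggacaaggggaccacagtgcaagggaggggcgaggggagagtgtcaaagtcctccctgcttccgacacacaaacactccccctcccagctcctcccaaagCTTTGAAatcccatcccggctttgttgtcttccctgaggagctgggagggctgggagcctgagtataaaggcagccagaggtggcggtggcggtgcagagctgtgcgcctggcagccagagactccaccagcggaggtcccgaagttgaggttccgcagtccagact

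The parts of the R-spondin axis differed in direction. The E3 ligases Znrf3 and Rnf43, which remove frizzleds from the cell surface, were higher in NP, and R-spondins and Lgr6 were lower. Znrf3 lay at 6.7, 6.62, 8.64, 8.5 and 7.68 FPKM in NP vehicle and 3.26, 3.3, 4.8, 3.83 and 3.53 in AF vehicle, without overlap, and differed by 0.86 (SE 0.13, adjusted p = 0.000207). Under MDL-800 its ranges were 6.93 to 9.83 and 2.93 to 4.46 and its difference 0.94 (SE 0.13, adjusted p = 8.51e-05). Rnf43 ranged over 2.23 to 3.13 FPKM in NP vehicle and 1.05 to 2.12 in AF vehicle, and differed by 0.66 (SE 0.14, adjusted p = 0.00256), or by 0.77 (SE 0.12, adjusted p = 0.000392) without AF vehicle 9, its highest AF library. Under MDL-800 the Rnf43 difference was 0.67 (SE 0.17, adjusted p = 0.00522), with means of 3.07 ± 0.549 and 1.6 ± 0.582 FPKM.

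Lgr6, an R-spondin receptor, lay at 0.364, 0.402, 0.86, 0.118 and 1.39 FPKM in NP vehicle and 30.0, 10.8, 30.3, 17.4 and 22.5 in AF vehicle. The lowest AF library was well above the highest NP library. Lgr6 differed by -3.80 (SE 0.29, adjusted p = 6.5e-06) in vehicle and by -3.74 (SE 0.34, adjusted p = 7.31e-06) under MDL-800, where it lay at 0.106 to 1.36 and 10.4 to 44.7 FPKM. Lgr4, its widely expressed relative, was at comparable levels in both tissues, 23.9, 21.5, 29, 31.8 and 23.4 FPKM in NP vehicle and 20.4, 13.7, 28.2, 22.7 and 20.8 in AF vehicle, and passed in neither comparison (0.30 (SE 0.18, adjusted p = 0.173) in vehicle, 0.28 (SE 0.22, adjusted p = 0.289) under MDL-800). Lgr5, known as a stem cell marker, was below the minimum, at 0.00986 to 0.0592 FPKM in NP vehicle and 0.415 to 1.37 in AF vehicle, again without overlap.

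Rspo3 was the only R-spondin tested. It lay at 0.0214, 0.0722, 0.0911, 0.0296 and 0.217 FPKM in NP vehicle and 1.98, 0.917, 3.34, 2.02 and 5.4 in AF vehicle, and at 0.0896, 0.137, 0.0303, 0.0212 and 0 and 1.32, 4.8, 5.82, 5.98 and 2.3 under MDL-800. The tissues did not overlap in either treatment, and the difference was -1.66 (SE 0.27, adjusted p = 0.000405) in vehicle and -2.13 (SE 0.29, adjusted p = 8.99e-05) under MDL-800. Rspo1 and Rspo2 were lower in NP without overlap in both treatments but untested, with AF vehicle ranges of 0.328 to 2.13 and 0.319 to 0.91 FPKM and NP values of at most 0.0987. Rspo4 lay at 0.335, 0.0193, 0, 0 and 0.641 FPKM in the vehicle group of AF, and at 0.311, 1.47, 4.52, 3.48 and 0.408 under MDL-800. Those groups overlap, and too few libraries reached the minimum for a test.

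Among the intracellular genes, Ctnnb1, which encodes beta-catenin, was the most abundant member in every group. Its values were 177, 168, 201, 166 and 164 FPKM in NP vehicle and 226, 216, 235, 193 and 272 in AF vehicle, which overlap, and 152, 152, 135, 145 and 158 and 226, 230.0, 296, 238 and 182 under MDL-800, which do not. It was called lower in NP in both treatments, with differences of -0.37 (SE 0.11, adjusted p = 0.0148) in vehicle and -0.64 (SE 0.12, adjusted p = 0.000828) under MDL-800. The vehicle call was lost when a GC trend was removed (-0.04, adjusted p = 0.783). That setting also moved the median of all genes from -0.08 to 0.23, so the loss cannot be assigned to GC. An opposite-strand gene overlaps 14.6% of the exon bases of Ctnnb1.

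The nuclear partners of beta-catenin split by gene. Lef1 lay at 0.193, 0.299, 0.567, 0.0789 and 0.908 FPKM in NP vehicle and 4.08, 3.42, 13.3, 5.78 and 11.9 in AF vehicle, a difference of -2.49 (SE 0.34, adjusted p = 0.000126), and at 0.137 to 0.618 and 6.4 to 14.4 under MDL-800, a difference of -2.87 (SE 0.20, adjusted p = 1.83e-06). Tcf7, first known from T cells, lay at 0.975, 1.36, 1.01, 1.23 and 2.1 and 5, 5.24, 4.41, 6.02 and 5.96 FPKM in vehicle and differed by -1.45 (SE 0.15, adjusted p = 2.54e-05), and by -1.34 (SE 0.15, adjusted p = 3.18e-05) under MDL-800 (1.39 to 2.62 and 4.99 to 7.99 FPKM). Both genes are also made by lymphocytes, T cells among them, and no marker list covered T cells. Markers of B and plasma cells, which do not measure T cells, summed to 114 to 266 FPKM in AF vehicle and 11.8 to 48.1 in NP vehicle. The part of lymphocytes in the Lef1 and Tcf7 values was not tested. Tcf7l1, usually a repressor, had the opposite direction. It lay at 17.3, 16, 17, 18.7 and 21.4 FPKM in NP vehicle and 6.62, 10.3, 14.8, 9.63 and 8.85 in AF vehicle, without overlap, and was higher in NP by 0.82 (SE 0.17, adjusted p = 0.00218) in vehicle and 1.00 (SE 0.14, adjusted p = 0.000135) under MDL-800 (19.8 to 28.6 and 8.38 to 14.2 FPKM). Tcf7l2 lay at 10.7, 10.4, 11.1, 11.3 and 12.5 and 15.5, 11.3, 20.7, 13.1 and 18.7 FPKM in vehicle, and its call (-0.44 (SE 0.15, adjusted p = 0.0306)) was lost in 7 of 10 fits that left out 1 library. Under MDL-800 Tcf7l2 differed by -0.51 (SE 0.17, adjusted p = 0.0214). After quantile normalization Tcf7l2 passed in neither treatment (-0.18, adjusted p = 0.33 and -0.29, adjusted p = 0.167), nor with the GC trend removed.

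Axin2, a feedback inhibitor and much-used readout of canonical signalling, was low everywhere and lower in NP. It lay at 0.45, 0.578, 0.516, 0.611 and 0.454 FPKM in NP vehicle and 1.92, 1.1, 1.73, 1.91 and 2.12 in AF vehicle, without overlap, and differed by -0.85 (SE 0.13, adjusted p = 0.000267). Under MDL-800 it lay at 0.391 to 1.09 and 1.47 to 2.59 FPKM and differed by -0.80 (SE 0.17, adjusted p = 0.00162). That call was lost after quantile normalization (-0.35, adjusted p = 0.0933), and with the GC trend removed the differences were -0.45 (adjusted p = 0.0176) in vehicle and -0.47 (adjusted p = 0.0359) under MDL-800. Axin1, the constitutive scaffold, passed in neither comparison, with means of 22 ± 6.68 and 20.0 ± 1.27 FPKM in vehicle. Apc, a scaffold of the destruction complex, was higher in NP at 29.6, 27.6, 27.7, 22.1 and 20.3 against 15.7, 14.4, 20.7, 19.7 and 18.4 FPKM in vehicle and 20.9 to 26.1 against 11.1 to 19.9 under MDL-800, by 0.49 (SE 0.14, adjusted p = 0.00995) and 0.45 (SE 0.14, adjusted p = 0.0181).

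Other genes of the Wnt pathway that are no members were taken from 7 lists, with 50 genes tested. In vehicle 12 were higher in NP and 20 lower, with a median of -0.06, and under MDL-800 20 and 21, with a median of 0.10, against the shares of all genes given above and a median of -0.08. The balance turned with the scaling, to 22 higher and 18 lower in vehicle and 27 and 16 under MDL-800 after quantile normalization, and to 24 and 17 and 26 and 18 with the GC trend removed. In vehicle, Wnt secretion genes numbered 2 of 2 higher, co-receptors and alternative receptors 2 higher and 2 lower of 5, extracellular regulators 1 higher and 7 lower of 8, cytoplasmic genes 2 and 3 of 13, planar polarity genes 1 and 3 of 6, nuclear cofactors 3 and 1 of 10, and target genes 1 and 4 of 6. The extracellular regulators thus had a median of -1.83. The 6 with the smallest p were Tnfrsf19 (-2.45 (SE 0.16, adjusted p = 3.98e-06)), Nkd2 (-2.67 (SE 0.21, adjusted p = 6.45e-06)), Apcdd1 (-1.92 (SE 0.19, adjusted p = 1.87e-05)), Sostdc1 (1.86 (SE 0.23, adjusted p = 7.89e-05)), Cthrc1 (-3.66 (SE 0.46, adjusted p = 7.94e-05)) and Tpbg (-1.38 (SE 0.18, adjusted p = 9.6e-05)). Tnfrsf19, Nkd2 and Apcdd1 are known as genes that Wnt signalling can induce. The 1 target gene called higher in NP, Ccnd1, went the other way, at 38.0 to 110 FPKM in NP vehicle and 26.4 to 51.7 in AF vehicle. Whether the activity of the pathway differs between the tissues was not tested. Sostdc1, an extracellular inhibitor that binds Lrp5 and Lrp6, was the exception among the 8 extracellular regulators, at 90.2 ± 15.4 FPKM in NP vehicle and 25 ± 8.37 in AF vehicle. Under MDL-800 the 6 were Cthrc1 (-3.74 (SE 0.23, adjusted p = 1.14e-06)), Nkd2 (-2.69 (SE 0.21, adjusted p = 2.99e-06)), Tnfrsf19 (-2.88 (SE 0.23, adjusted p = 3.01e-06)), the osteocyte inhibitor Sost (-4.02 (SE 0.32, adjusted p = 3.05e-06)), Celsr1 (2.92 (SE 0.24, adjusted p = 3.65e-06)) and Notum (-2.49 (SE 0.22, adjusted p = 6.33e-06)).

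Treatment with MDL-800 was compared with vehicle within each tissue. In NP, 0 of the 41 members passed, against 0.25% of all genes tested (0.232% higher, 0.0183% lower). At an unadjusted p under 0.05 there were 9 members, 7 higher (Fzd2, Wnt11, Lrp5, Tcf7l1, Wnt5b, Fzd9 and Tcf7l2) and 2 lower (Ctnnb1 and Fzd6), against 14.1% of all genes (9.11% higher, 4.99% lower), and the smallest adjusted p was 0.0743. The median log2 difference was 0.07 over the members and -0.03 over all genes. The groups did not overlap in 5 members, 4 higher (Fzd2, Lrp5, Wnt11 and Wnt5b) and 1 lower (Ctnnb1), against 4.5% of all genes (3.5% higher, 1% lower). Of the 9 tested ligands, all had a positive difference in NP, with a median of 0.27 against -0.03 over all genes, and 2 had an unadjusted p under 0.05. Of all 41 tested members, 25 had a positive difference, and the share over all genes was not counted. The ligand count was not repeated with the GC trend described below removed, a setting that took Wnt5b from 0.34 to 0.12.

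The 3 members with the smallest p in NP were Fzd2, Wnt11 and Lrp5. Fzd2, a frizzled of mesenchymal tissues, lay at 7.78, 7.85, 7.68, 10.6 and 9 FPKM in NP MDL-800, all above the vehicle values given earlier, with a difference of 0.75 (SE 0.15, adjusted p = 0.0743). Its share of the frizzled sum was 7.57 ± 1.56% in NP of vehicle mice and 13.0 ± 2.74% in NP of treated mice (SD, n = 5). Wnt11, a noncanonical ligand, lay at 1.69, 2.24, 3.06, 3.23 and 3.1 FPKM in NP of vehicle mice and at 5.07, 8.33, 3.77, 4.55 and 5.12 after MDL-800, a difference of 0.78 (SE 0.19, adjusted p = 0.101). Without library 18, the highest, the Wnt11 difference was 0.63 (SE 0.16, adjusted p = 0.152). Lrp5 differed by 0.40 (SE 0.10, adjusted p = 0.108), with the values given above. For the other members without overlap, Wnt5b lay at 4.1, 4.2, 3.96, 3.7 and 3.69 and 5.09, 4.21, 5.5, 5.84 and 5.67 FPKM and differed by 0.34 (SE 0.10, adjusted p = 0.153), and Ctnnb1 differed by -0.24 (SE 0.07, adjusted p = 0.18).

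The GC content of transcripts also separated the NP groups. The slope of a library's deviation from the mean of its tissue was between -0.25 and 0.03 log2 units per 10 percentage points of GC in NP vehicle, with libraries 1 and 2 at -0.25, and between 0.06 and 0.12 in NP MDL-800. With this trend removed, Fzd2 differed by 0.60 (SE 0.14, adjusted p = 0.0998), Wnt11 by 0.63 (SE 0.17, adjusted p = 0.161) and Lrp5 by 0.28 (SE 0.09, adjusted p = 0.256). Other members moved more. The difference was 0.12 (SE 0.14, adjusted p = 0.797) in place of 0.34 for Wnt5b, 0.17 in place of 0.42 for Fzd9 and 0.17 in place of 0.37 for Tcf7l1, whereas Ctnnb1 stood at -0.27 (SE 0.08, adjusted p = 0.203) in place of -0.24. The group and the GC slope cannot be told apart in NP.

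**Figure D5:**
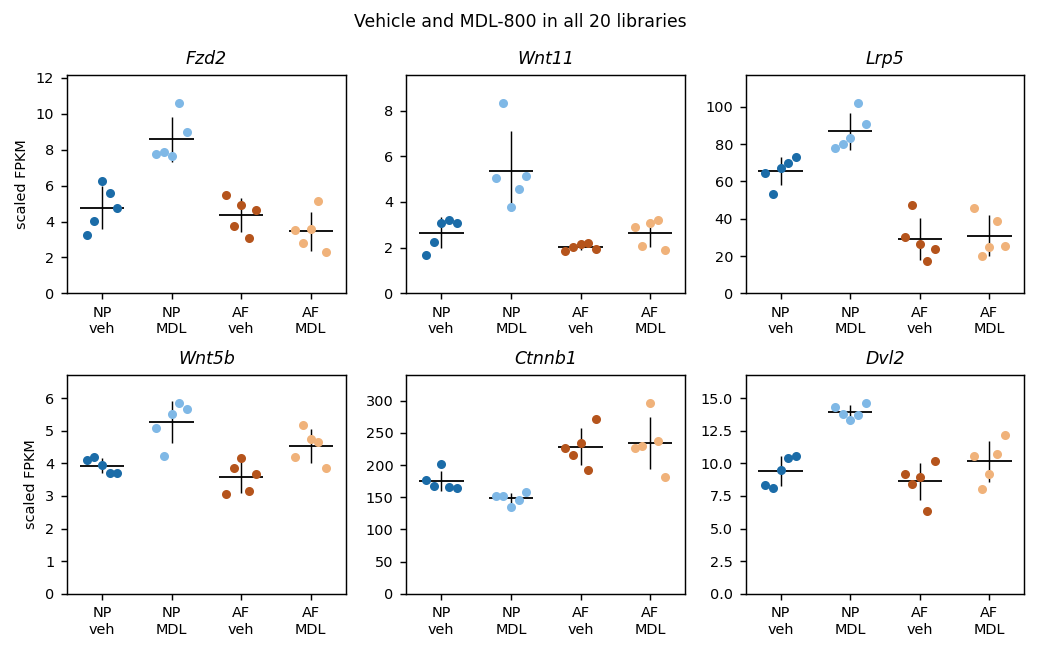
Scaled FPKM (linear axis from 0) of Fzd2, Wnt11, Lrp5, Wnt5b, Ctnnb1 and Dvl2 in each of the 20 libraries, with group means as horizontal bars and SD as vertical bars (n = 5). Shown are the 5 members whose groups did not overlap in NP, none of them called, and Dvl2, which was called there. That NP points do not overlap in the 6 panels thus follows largely from this choice. In AF the points overlap in all 6. Over all genes tested, the groups did not overlap for 4.5% in NP and 0.226% in AF.

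In AF, 0 of the 41 members and 0% of all genes tested passed, and 1 member, Wnt5b, had an unadjusted p under 0.05, against 1.65% of all genes (0.922% higher, 0.726% lower). No member's groups were free of overlap, against 0.226% of all genes (0.128% higher, 0.0977% lower). The 3 smallest p belonged to Wnt5b at 3.06, 3.86, 4.17, 3.14 and 3.66 FPKM in vehicle and 4.19, 5.18, 4.74, 4.67 and 3.87 under MDL-800 (0.27 (SE 0.11, adjusted p = 1)), Wnt11 at 1.87, 2.03, 2.15, 2.2 and 1.96 and 2.92, 2.09, 3.09, 3.22 and 1.88 (0.24 (SE 0.13, adjusted p = 1)) and Fzd2 at 3.09 to 5.47 and 3.51, 2.8, 3.6, 5.16 and 2.29 (-0.28 (SE 0.19, adjusted p = 1)). For Wnt16 the difference was -0.55 with a 95% interval from -1.79 to 0.69, which holds both a lower and a higher level.

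The treatment effect was then compared between tissues, as NP minus AF in 1 fit. No member passed and 0% of all genes did, with 2 members at an unadjusted p under 0.05 against 3.73% of all genes (2.12% higher, 1.61% lower). Fzd2 had the smallest p, a difference of 1.03 (SE 0.25, adjusted p = 1) with an unadjusted p of 0.000525, followed by Wnt11 (0.54 (SE 0.24, adjusted p = 1)) and Wnt9a (0.55 (SE 0.32, adjusted p = 1)). Fzd2, Wnt11, Wnt9a and Fzd5 are the 4 members called between tissues under MDL-800 and not in vehicle, and that change of call was not accompanied by a difference past the threshold. The treatment comparison in NP shares its libraries with both tissue comparisons.

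Among the 50 other Wnt pathway genes, Dvl2, which relays the signal from frizzled receptors, was called higher in NP under MDL-800, with means of 9.39 ± 1.13 and 13.9 ± 0.529 FPKM and a difference of 0.53 (SE 0.09, adjusted p = 0.0426). This call was lost in 17 of 23 alternative settings, including 9 of 10 fits that left out 1 library and the removal of the GC trend (0.37, adjusted p = 0.0638), with adjusted p-values between 0.0275 and 0.141 over all of them. Apart from the GC setting, the Dvl2 difference itself stayed between 0.48 and 0.57. At an unadjusted p under 0.05 there were 11 such genes of 50 in NP, all higher, against 14.1% of all genes (9.11% higher, 4.99% lower), with a median of 0.13 against -0.03. In AF there were 2, against 1.65% of all genes, with none called.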

How the data were processed

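The authors deposited 1 table of FPKM values, rounded to 2 decimals, for 20 libraries, 5 per group. Per the labels' protocols these were stranded total RNA libraries with ribosomal RNA depleted, with an input of 50 ng and 14 PCR cycles. STAR 2.7.11b and mm10 are named in the submitters' processing notes. The counting program, its strand setting and the annotation are not given in the sources used here. Of the gene identifiers, 51596 were found in GENCODE M21 (GRCm38), which supplied transcript lengths, GC content and overlaps.

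Each library was scaled by a median ratio (its FPKM over the gene's geometric mean) taken from the 11308 genes with at least 1 FPKM everywhere. Groups were compared with limma 3.58.1 (R 4.3.3, trended eBayes, two-sided) on log2(scaled FPKM + 1), with only the groups compared in the fit, and the difference of treatment effects was a contrast over all 4 groups. The procedure was tested on simulated data. Alternatives covered scaling, the pseudocount (0.1, 0.5), the filter, the GC trend, marker covariates and each library left out. Depth was estimated from 6641 single-exon genes, whose values lay on fragment steps for 72.6 to 79.7% of cases.

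Every member was to be named with its level, with fold changes for up to 25 called members per tissue comparison by size and for the 3 smallest p in the others. Fold changes outside this rule were added after the values were seen. Members and lists were chosen with earlier results of these data known.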

Additional observations from a re-analysis of the deposited data

Results flagged for a closer look

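Of 164 groups of 5 libraries examined among the tested members, 10 held a library far from the other 4 (a gap over the group's range above 0.71), and chance alone gives about 8.2. In AF vehicle 9 there were 3: Rnf43 at 2.12 FPKM (others at most 1.27), Wnt10a at 2.94 (others at most 1.01) and Sfrp4 at 14.2 (others at least 36.0). In NP MDL-800 18 there were also 3: Fzd7 at 45.7 FPKM (next 35.9), Rnf43 at 4.0 (next 3.03) and Wnt10b at 0.726 (next 0.299).

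The other 4 were single cases. Wnt16 reached 88.5 FPKM in NP MDL-800 22 (next 71.8), and Fzd9 reached 3.21 in NP vehicle 3 (next 2.1). In AF MDL-800, Lef1 was at 14.4 FPKM in library 27 (next 8.55) and Apc at 11.1 in library 30 (next 17.5).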

How the results depend on the processing

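Members higher in NP of vehicle mice numbered 11, and 17 after quantile normalization and 18 after removal of the GC trend. With 1 library left out, the vehicle counts ranged from 11 to 12 higher and 17 to 19 lower, and those under MDL-800 from 13 to 14 and 19 to 20. The member counts of both treatment comparisons and of their difference were 0 in every setting run. No direction reversed among the named members, and 26 of 29 called members in vehicle and 25 of 33 under MDL-800 passed in all settings. The exceptions were Tcf7l2, Fzd9 and Ctnnb1 in vehicle, and Tcf7l2, Fzd9, Ctnnb1, Wnt4, Fzd5, Axin2, Fzd8 and Apc under MDL-800. Genes called in NP after treatment, 41 in all, ranged from 2 to 189 with 1 library left out, and the cause was not tested. Without the filter on low values, 56 members could be tested in vehicle, and 11 were higher and 24 lower. Of all genes 10662 were called in that setting, and their share by direction was not counted, so the members have no background there.

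The sample titles share no replicate number between groups. The column names carry a further number. NP and AF share 8, 9, 10, 12 and 13 in vehicle, and only 36, 37 and 39 under MDL-800. Added as a replicate block after seeing the data, it gave 12 higher and 18 lower members in vehicle, with 8783 of all genes called in place of 9127. Under MDL-800 it gave 13 and 17, with 7857 called in place of 10290. For the difference of treatment effects it gave 0. Correlations of same-numbered libraries ran from -0.18 to 0.29 and those of differently numbered ones from -0.37 to 0.33. This check therefore cannot decide for or against a pairing by animal, and the main tissue fits use none. Depth limits values of members near 0, where 1 fragment is worth up to 0.0711 FPKM.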
